A study of Homo sapiens with 36 samples.

Results

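LONRF1 was the gene examined here, 1 of 74628 genes in the count table, and it was chosen by its difference between the guides in these same libraries. The cells were Jurkat, a human T-lymphocyte leukaemia line, carrying dCas9-VP64, a nuclease-dead Cas9 fused to a transcriptional activator, and labelled mCherry+. The pXPR lentiviral vectors carried either sgRELA, a guide against RELA, or sgControl, which the labels call non-targeting. Cells were selected with puromycin, and were harvested on day 5, 6 or 7 after transduction. All groups share the dCas9-VP64 line, the vector type and the selection, and each guide name stands for 1 guide as far as the labels say. There were 6 groups by guide and day with 3 biological replicates in each, and each of the 18 RNA samples had 2 RamDA-seq libraries (full-length total RNA sequencing with random priming), whose counts were added. With 1 guide for RELA, an effect of this guide and an effect of the RELA protein cannot be told apart. Whether the 3 days of one replicate number came from one transduced culture is not stated in the labels. The p-values of guide and day comparisons weigh a difference against the spread between these samples.

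LONRF1 encodes a protein with a RING finger, the fold that lets a ubiquitin ligase bring a ubiquitin-conjugating enzyme to its target, and a LON domain, a substrate-binding fold shared with the LON proteases. Ligases of this kind mark proteins with ubiquitin, often for destruction by the proteasome. LONRF2 and LONRF3 are its closest paralogues. RELA encodes p65, the NF-kB subunit that carries a transactivation domain. NF-kB is held in the cytoplasm by IkB proteins and, once released, turns on genes that include its own inhibitors.

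The activator was directed to RELA, so the promoter of RELA is shown for orientation. The sequence of the guide is not given in the sources used here, and no site of the guide is marked. The stretch runs from chr11:65662867-65663166 on the minus strand of GRCh38.p14, as RefSeq gives it, written 5′ to 3′. Capitals mark the 50 bases after one annotated start of the gene, and the 250 bases before it are in lower case. It has 77% G and C.
RELA: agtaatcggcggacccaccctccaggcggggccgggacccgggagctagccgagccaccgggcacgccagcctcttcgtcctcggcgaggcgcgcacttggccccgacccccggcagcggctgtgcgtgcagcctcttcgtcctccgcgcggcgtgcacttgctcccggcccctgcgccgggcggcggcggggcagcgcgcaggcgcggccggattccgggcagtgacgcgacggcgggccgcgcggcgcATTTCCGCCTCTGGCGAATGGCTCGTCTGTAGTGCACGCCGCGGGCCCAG

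LONRF1 was higher under sgRELA in every RNA sample and on every day. Its level in RNA samples is given in CPM, counts relative to a common library total, after scaling for library composition. Levels of single libraries, and differences between the 2 libraries of an RNA sample, carry no such scaling. On day 5 the sgControl samples held 29.4, 30.2 and 23.7 CPM of LONRF1, and the sgRELA samples 133.5, 149.7 and 141.0 CPM. On day 6 the sgControl samples held 19.8, 15.99 and 16.3 CPM and the sgRELA samples 92.9, 102.0 and 89.9 CPM. On day 7 the sgControl samples held 18.4, 24.1 and 19.9 CPM and the sgRELA samples 96.6, 100.6 and 109.6 CPM. The lowest sgRELA sample of all days thus lay above the highest sgControl sample, and no day had overlapping groups. These levels rested on 358 to 670 counts of LONRF1 per RNA sample in sgControl and 1721 to 4100 in sgRELA.

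The fitted log2 fold change of LONRF1 was 2.35 ± 0.13 (SE) on day 5, which is 5.10-fold. It was 2.45 ± 0.13 on day 6, or 5.48-fold, and 2.30 ± 0.13 on day 7, or 4.92-fold. With the 3 days added per replicate number, the mean level of LONRF1 was 21.9 ± 1.78 CPM under the control guide and 114.2 ± 5.65 CPM under the RELA guide (SD over 3 sums), which is 5.22-fold. LONRF1 was chosen by this contrast, so these values are a description and carry no p. For scale, edgeR called 0.138% of 27553 tested genes between the guides on day 5, 0.214% on day 6 and 0.0907% on day 7, and 0.363% of 28888 with days added, at an adjusted p under 0.05. Among the 70 genes called higher with days added, LONRF1 ranked 10 by fold.

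**Figure D1:**
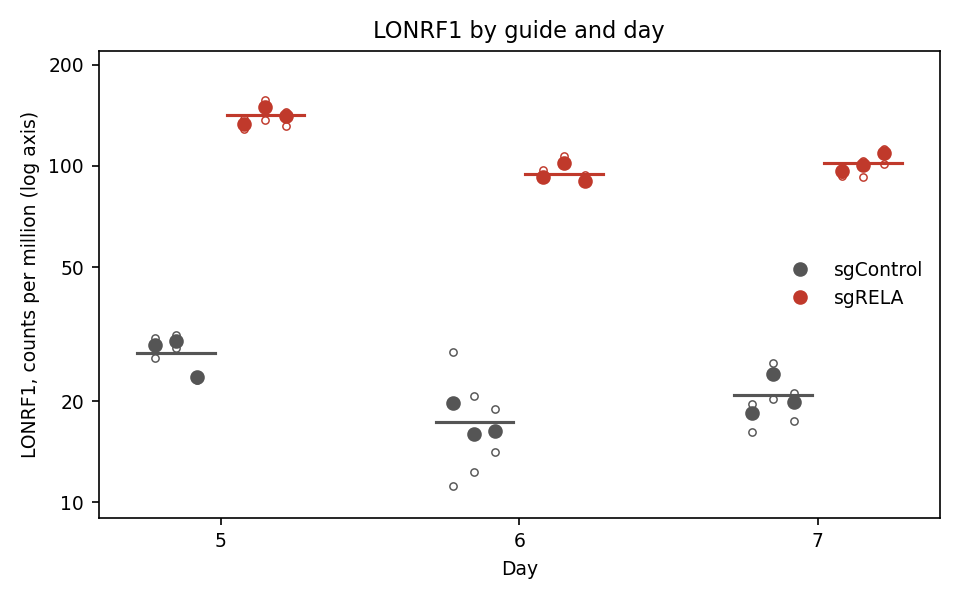
LONRF1 in CPM (log axis) by day. Filled points are RNA samples (3 per group), open points their 2 libraries, and lines the group means. Open points are not scaled for library composition, so a filled point can lie outside its 2 libraries. The sgRELA samples lie between 89.9 and 149.7 CPM and the sgControl samples between 15.99 and 30.2 CPM, and the libraries of one RNA sample lie farthest apart in sgControl on day 6.

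The 2 libraries of one RNA sample gave LONRF1 levels closer together in sgRELA than in sgControl. The absolute log2 difference between them had a median of 0.10 and a maximum of 0.20 over 9 sgRELA samples. In sgControl the median was 0.28 and the maximum 1.32, for day 6 replicate 1. In that RNA sample, library 1 held 11.2 CPM of LONRF1 from 85 counts, and library 2 held 28.0 CPM from 318 counts. Both values lay under every sgRELA library. An exact binomial test of the 2 counts against the library totals gave an unadjusted p under 0.05 in 5 of 9 sgRELA and 6 of 9 sgControl samples. The sgRELA libraries held more LONRF1 counts, and whether that accounts for their closer levels was not tested.

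Within each guide, LONRF1 fell between day 5 and day 6 and did not return to its day 5 level on day 7. These day contrasts were not used to choose the gene and were tested with edgeR's quasi-likelihood test, with p-values adjusted over all tested genes. Under sgRELA, LONRF1 fell from 141.4 ± 8.14 CPM on day 5 to 94.9 ± 6.28 CPM on day 6 (SD, n = 3 each). The log2 fold change was -0.57 ± 0.12 (SE), with an adjusted p of 0.00197, in a contrast that called 6.91% of genes. On day 7 it stood at 102.3 ± 6.62 CPM, lower than on day 5 by a log2 fold change of -0.47 ± 0.12 (adjusted p = 0.00735, 12.4% of genes called). Day 7 against day 6 gave 0.11 ± 0.12 (adjusted p = 0.701, 12.2% of genes called). The 3 sgRELA samples of day 5 lay above all 6 samples of the later days. With the first or the second library of each RNA sample alone, neither fall passed (adjusted p = 0.186 and 0.089 for day 6, 0.269 and 0.074 for day 7, against day 5).

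LONRF1 also fell after day 5 under the control guide. It went from 27.7 ± 3.57 CPM on day 5 to 17.3 ± 2.10 CPM on day 6 (SD, n = 3 each). The log2 fold change was -0.68 ± 0.13 (SE), with an adjusted p of 0.000551 by edgeR and 8.87% of genes called. The samples of these days did not overlap. With the first libraries alone this difference was -1.05 (adjusted p = 0.00868), and with the second alone it was -0.41 and missed the threshold (adjusted p = 0.217). On day 7 the level was 20.8 ± 2.96 CPM, and the log2 fold change against day 5 was -0.42 ± 0.13 (adjusted p = 0.0243, 13% of genes called). One day 7 sample, replicate 2 with 24.1 CPM, lay above the lowest day 5 sample. This last call was lost when any 1 of 4 sgControl samples was left out (day 5 replicate 1 or 2, day 7 replicate 1 or 3), with adjusted p between 0.0895 and 0.144, and in both library sets (adjusted p = 0.397 and 0.0957). Day 7 against day 6 gave 0.26 ± 0.13 (adjusted p = 0.193, 14.6% of genes called), and passed at an adjusted p of 0.047 without day 6 replicate 1.

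No change of the LONRF1 guide difference over days passed the test. The interaction of guide and day had an adjusted p of 1 for LONRF1 by edgeR, in a test that called 1 gene, 0.00363% of those tested, while 1291 had an unadjusted p under 0.05. From day 5 to day 7 the log2 guide difference of LONRF1 moved by -0.05 ± 0.17 (SE), with a 95% interval of -0.40 to 0.30. From day 5 to day 6 it moved by 0.10 ± 0.17, with an interval of -0.25 to 0.46.

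RELA, the gene the guide is named for, had another course. In sgControl, RELA had 31.2, 39.3 and 29.3 CPM on day 5, 30.9, 20.2 and 20.7 on day 6, and 26.5, 25.3 and 22.4 on day 7. In sgRELA it had 318.5, 263.1 and 299.7 CPM on day 5, 223.2, 186.7 and 193.6 on day 6, and 125.8, 135.9 and 119.8 on day 7. The sgRELA samples of RELA thus stepped down from day to day with no overlap, whereas those of LONRF1 stepped down once. The log2 guide difference of RELA was 3.14 ± 0.14, 3.07 ± 0.14 and 2.36 ± 0.14 (SE) on days 5, 6 and 7. It moved by -0.78 ± 0.18 from day 5 to day 7 (95% interval -1.16 to -0.40). The interaction of RELA did not pass over all genes (adjusted p = 0.686), and did so when sgControl day 6 replicate 1 was left out (adjusted p = 0.0153), without both libraries with few detected genes (0.0184) and without the filter on low counts (0.00224).

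**Figure D2:**
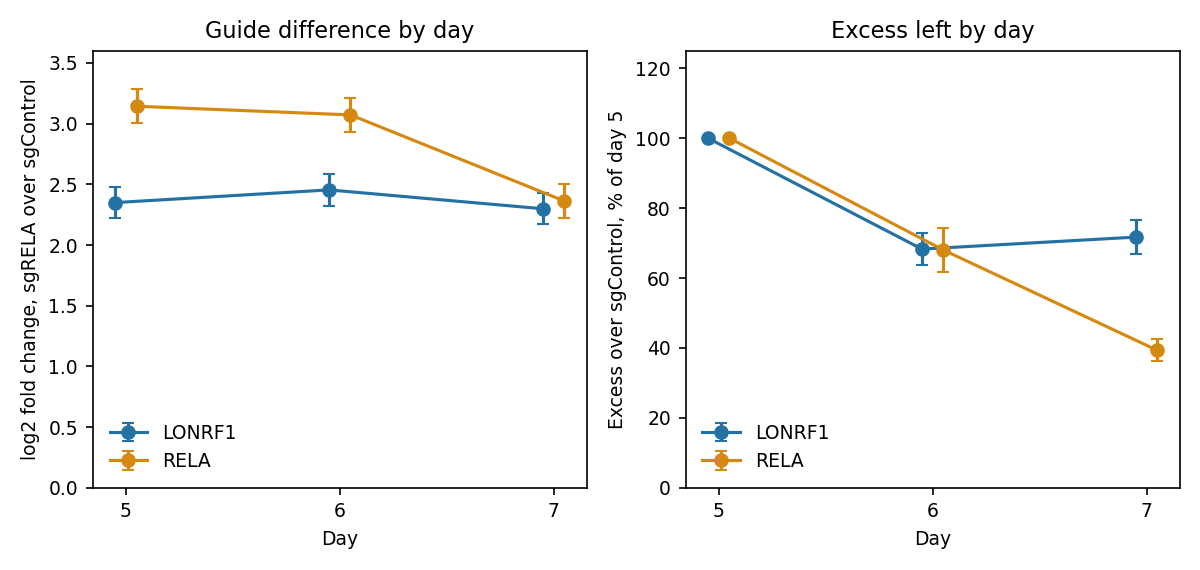
Left, log2 fold change of sgRELA over sgControl by day for LONRF1 and RELA, with SE bars. Right, the excess of sgRELA over sgControl in CPM as a percent of its day 5 value, with SE bars propagated from the group SEs. On day 7 LONRF1 kept 71.7% of its day 5 excess and RELA 39.3%.

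In CPM, the excess of LONRF1 in sgRELA over sgControl was 113.6 CPM on day 5. It was 68.3% ± 4.56 (SE) of that on day 6 and 71.7% ± 4.90 on day 7. The excess of RELA was 68.0% ± 6.24 of its day 5 value on day 6 and 39.3% ± 3.12 on day 7. The shares of both genes thus differed by less than their SE on day 6 and by more on day 7.

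The courses of both genes were compared within each RNA sample as the log2 ratio of LONRF1 to RELA, each as CPM + 1. CPM is not scaled by transcript length, so the ratio tracks change over days and does not say which RNA was more abundant. Under sgRELA the ratio was -1.25, -0.81 and -1.08 on day 5, and -1.26, -0.87 and -1.10 on day 6. On day 7 it was -0.38, -0.43 and -0.13, above all samples of the earlier days. The ratio differed between days by an exact permutation test of the F statistic over all assignments of the 9 samples to the days (p = 0.025). Its mean was 0.74 higher on day 7 than on day 5, a 1.66-fold rise of LONRF1 relative to RELA. Day 7 against day 5 alone gave an exact two-sided permutation p of 0.1, the smallest that 3 samples against 3 allow, and day 6 against day 5 gave 0.7.

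Under sgControl the ratio of LONRF1 to RELA showed no such step. It was -0.08, -0.37 and -0.30 on day 5, -0.62, -0.32 and -0.33 on day 6, and -0.51, -0.07 and -0.16 on day 7. The ranges of the 3 days overlapped, and the exact permutation test gave p = 0.5. Whether the course of the ratio differs between the guides was not tested.

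**Figure D3:**
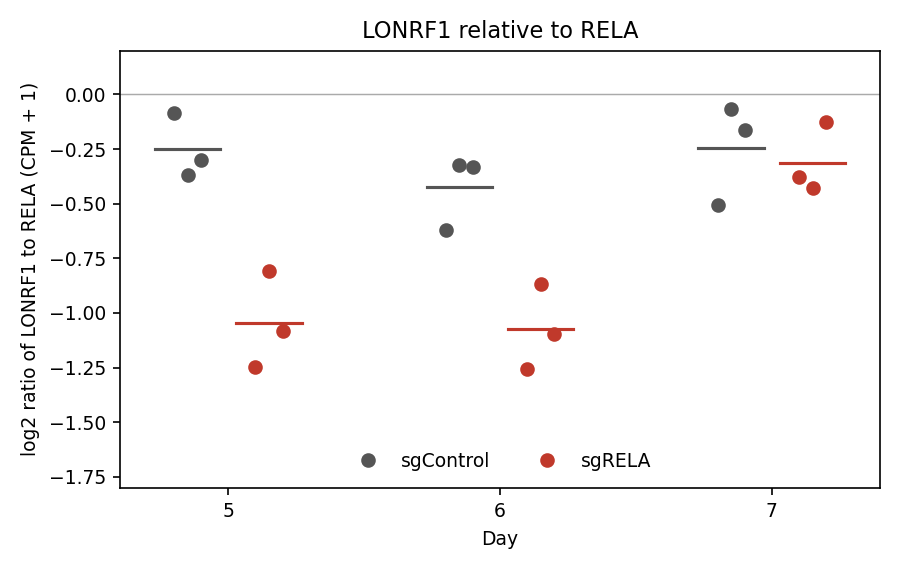
The log2 ratio of LONRF1 to RELA (CPM + 1) in each RNA sample by day, with lines at the group means. Under sgRELA the day 7 samples lie between -0.43 and -0.13 and the earlier ones between -1.26 and -0.81, while the sgControl samples of all days overlap.

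Across RNA samples of one guide, the relation of LONRF1 with RELA was examined with day means subtracted, and in sgControl also with days pooled. The sgRELA samples fell into separate clusters by day for RELA, so no pooled value is given for them. With day means subtracted, Pearson's r was -0.66 and Spearman's rho -0.65 over 9 sgRELA samples (exact permutation p = 0.116 and 0.12 within days, adjusted 0.148 and 0.12 over 3 relations). In sgControl the same gave 0.63 and 0.58 (exact permutation p = 0.148 and 0.111, adjusted 0.148 and 0.12). With days pooled, sgControl gave r = 0.83 and rho = 0.78 (permutation p = 0.00674 and 0.0173, adjusted 0.0202 and 0.0519). Without the 2 samples farthest from the median of RELA, r was 0.65 in pooled sgControl (permutation p = 0.116), 0.50 in day-centred sgControl and -0.44 in day-centred sgRELA. The pooled relation thus missed the threshold in the 7 samples left, where power is also lower. With all 9 samples, pooled r in sgControl was 0.08 with the first libraries alone and 0.56 with the second.

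The highest correlations with LONRF1 over the 18 RNA samples were those of RELA (r = 0.978), SHOX2 (0.973), CD79A (0.944), RNPEP (0.942) and C3 (0.940). They were drawn from 18889 genes with a mean of at least 1 CPM. The values are Pearson correlations of log2(CPM + 1), given as a description. The 18 points share 2 guides, so a gene that differs between guides scores high. Within the 9 sgRELA samples, days pooled, r was 0.47 for SHOX2, 0.01 for CD79A, -0.52 for RNPEP and -0.29 for C3. In the 9 sgControl samples it was 0.28, -0.14, -0.04 and 0.05 in the same order. SHOX2, a homeobox transcription factor, lay at 0 to 0.88 CPM under sgControl and at 8.97 to 17.5 CPM under sgRELA. RNPEP, an aminopeptidase, lay at 29.7 to 40.9 CPM under sgControl and at 92.0 to 130.7 CPM under sgRELA, where its highest group mean fell on day 6 and that of LONRF1 on day 5. C3, the central complement component, lay at 0 to 0.78 CPM under sgControl and at 5.66 to 20.5 CPM under sgRELA.

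CD79A, a chain of the B-cell receptor complex, is a B-cell marker and lay at 16.4 to 26.2 CPM under sgControl and at 48.2 to 62.6 CPM under sgRELA. The B-cell markers MS4A1, CD79B and PAX5 had mean levels under 0.3 CPM under both guides. All 10 T-cell markers, among them CD3E and LCK, were expressed, with a summed level of 2080 to 2962 CPM in sgControl and 2282 to 3097 CPM in sgRELA. None of 5 myeloid, 4 erythroid and 4 epithelial markers had a mean of 1 CPM over all RNA samples.

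Of 27553 tested genes, 13 were called higher under sgRELA on each of the 3 days. LONRF1 was 1 of them by the contrast that chose it, so its place there is a description. The change of the log2 guide difference from day 5 to day 7 had a median of -0.0048 over these 13 genes. It was lower than that of LONRF1 in 5, and RELA had the lowest. The others of the 5 were SHOX2, LINC01882, RELB and CD79A.

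None of the genes that share a LON domain with LONRF1 was called between the guides. With days added, edgeR called 0 of the 5 others and DESeq2 called 0, while 1 had an unadjusted p under 0.05. Over all genes edgeR called 0.363% in this contrast, and 1947 of 28888 had an unadjusted p under 0.05, so a count of 0 among 5 is near the background. LONRF2, the paralogue described as a ligase for misfolded proteins, had a log2 guide difference of -0.14 ± 0.11 (SE, adjusted p = 0.89). LONRF3 had -0.10 ± 0.37 (adjusted p = 0.991). LONP1, the protease of the mitochondrial matrix, had -0.03 ± 0.05 (adjusted p = 0.968), and LONP2, the peroxisomal one, 0.14 ± 0.05 (adjusted p = 0.379). CRBN, the cereblon subunit of a cullin ligase, had 0.08 ± 0.10 (adjusted p = 0.955). The median over the 5 was -0.03, beside -0.0019 over all tested genes. On day 7 alone, LONRF3 had a guide difference of 6.86 ± 1.71 (SE, adjusted p = 0.255 by edgeR). It rested on 0 counts in sgControl and 46 in sgRELA, so its size is uncertain.

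**Figure D4:**
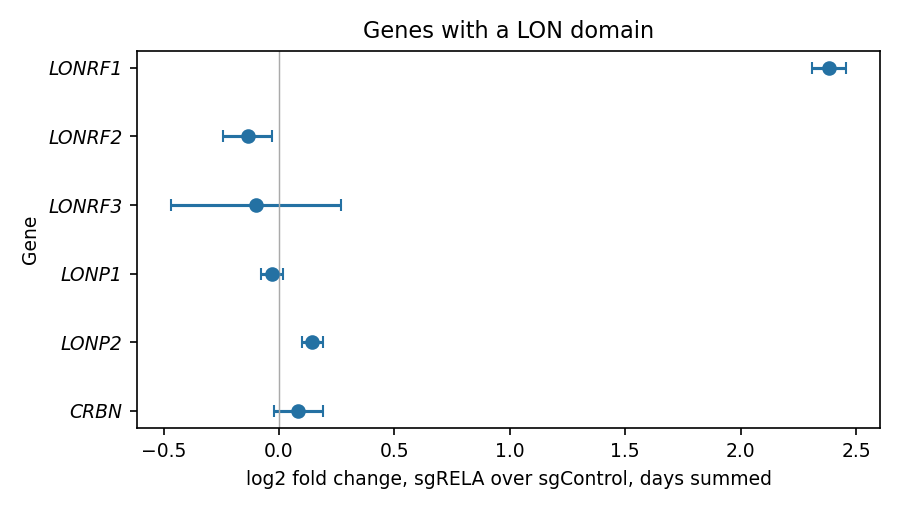
Log2 fold change of sgRELA over sgControl with days added, for LONRF1 and the 5 other genes with a LON domain, with SE bars. LONRF1 lies at 2.38 and the others between -0.14 and 0.14.

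The levels of the other LON domain genes also varied between days. CRBN had group means of 25.7, 18.1 and 17.9 CPM on days 5, 6 and 7 under sgRELA and of 22.3, 18.4 and 17.7 CPM under sgControl. Its log2 differences under sgRELA were -0.51 ± 0.20 (SE) for day 6 and -0.52 ± 0.20 for day 7 against day 5 (adjusted p = 0.136 and 0.0841 by edgeR), beside -0.57 and -0.47 for LONRF1. LONRF2 had group means of 27.1 to 40.1 CPM, and none of its day contrasts passed by edgeR. LONP1 fell from day 6 to day 7, by 0.27 on the log2 scale under sgRELA (adjusted p = 0.0447 by edgeR) and by 0.39 under sgControl (adjusted p = 0.00214). The first of these calls was lost in 14 of 18 fits that left out 1 RNA sample, with adjusted p between 0.0529 and 0.191. LONRF3 had 84 counts over the 6 libraries of sgControl on day 5, 159 on day 6 and 0 on day 7, and 109, 82 and 46 under sgRELA. Taking 3 counts over the group as the limit of a count of 0, LONRF3 was at least 30.5-fold lower on day 7 than on day 5 in sgControl (adjusted p = 0.00145). Neither library set alone kept that call (adjusted p = 0.0517 and 0.0542). Single libraries of the other 5 groups also held 0 counts of LONRF3, 7 of 30 libraries.

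The lists of other ubiquitin ligases and conjugating enzymes also gave no call between the guides. Of 20 ligases of protein quality control, edgeR and DESeq2 called 0 with days added, and 3 had an unadjusted p under 0.05, beside 0.363% called and 1947 of 28888 under an unadjusted p of 0.05 over all genes. A count of 0 is near that background for lists of this size. KCMF1 had a log2 guide difference of 0.15 ± 0.06 (SE, adjusted p = 0.606), UBR1, an N-end rule ligase, 0.12 ± 0.05 (0.608), UBR2 0.10 ± 0.05 (0.728) and SYVN1, a ligase of the endoplasmic reticulum, -0.14 ± 0.08 (0.824). Of 14 ubiquitin-conjugating enzymes and their variants, both tools called 0 and 0 had an unadjusted p under 0.05. The smallest p belonged to UBE2D3 with 0.09 ± 0.04 (adjusted p = 0.761), UBE2V2 with 0.14 ± 0.08 (0.817) and UBE2W with 0.10 ± 0.06 (0.84). The median guide difference was -0.0055 over the ligases and 0.04 over the conjugating enzymes.

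Known targets of NF-kB gave 4 calls of 14 tested, all higher under sgRELA with days added, by edgeR and by DESeq2, beside 0.363% of all tested genes called by edgeR. The other 2 of the 16 listed were not tested. TNFAIP3, the A20 ubiquitin editor, was higher by 0.81 ± 0.06 on the log2 scale (SE), with an adjusted p of 8.76e-08 by edgeR. NFKBIA, which encodes IkB alpha, was higher by 1.19 ± 0.12 (adjusted p = 4.5e-06), RELB, another NF-kB subunit, by 2.12 ± 0.22 (adjusted p = 7.48e-06) and LTB, a lymphotoxin chain, by 3.62 ± 0.69 (adjusted p = 0.0153). LTB rested on 14 counts in sgControl and 184 in sgRELA, and its call was lost when any of 4 of the 6 sums was left out, with adjusted p between 0.059 and 0.142. The 4 are sgControl replicate 1 and each of the sgRELA replicates. The fold of LONRF1 was larger than those of TNFAIP3, NFKBIA and RELB and smaller than that of LTB, as values from one contrast.

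LONRF1 (ENSG00000154359) is a protein-coding gene on the minus strand of chromosome 8, from 12721894 to 12756073 in GENCODE v29 on GRCh38, with 9 annotated transcripts. RELA lies on chromosome 11, from 65653596 to 65663094. Within 1 Mb of LONRF1, RefSeq lists 78 other genes on GRCh38.p14, and 49 of them could be found in the count table. No count was seen in any library for 28 of these 49. Of the 13 tested with days added, edgeR and DESeq2 called 0 between the guides and 0 had an unadjusted p under 0.05. Over all 28888 tested genes edgeR called 0.363%, and 1947 had an unadjusted p under 0.05. A count of 0 among 13 is near that background. Their log2 guide differences ran from -1.33 to 0.68 with a median of 0.05.

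The nearest tested gene at lower coordinates was RPS3AP35, a pseudogene 92626 bp away with 56 counts in all libraries, and its log2 guide difference was -0.68 ± 1.04 (SE, adjusted p = 0.968). At higher coordinates it was DLC1, 327835 bp away, with 107 counts and -1.33 ± 0.88 (adjusted p = 0.863). At these counts only large differences could be seen. LINC00681, 38714 bp away, was the nearest gene with any count, 0 in sgControl and 10 in sgRELA, and was not tested. Other genes of the region had ample counts but lay far from LONRF1: FAM66A 310905 bp, CTSB 853819 bp and FDFT1 882608 bp away. FDFT1, the squalene synthase, had a guide difference of 0.05 ± 0.04 (adjusted p = 0.918), CTSB, a lysosomal protease, 0.05 ± 0.06 (0.955) and FAM66A, a noncoding gene with near-identical copies, -0.11 ± 0.08 (0.885). They were chosen after their values were seen.

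Promoters of the genes with the highest correlations to LONRF1 over both guides were searched on both strands for the kB consensus. This is the 10-base motif that NF-kB dimers bind. The window held 250 bases before and 50 after each RefSeq start. A match stood in 1 of 2 windows of RNPEP, and none in the 2 of RELA or in those of SHOX2 and CD79A, while 5.91% of 35116 promoters of that length held one. No window of LONRF1 or C3 was in the sources used here, so their promoters could not be searched.

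Depth varied between libraries and between RNA samples. The 36 libraries held 7586205 to 16124473 counts each, with a median of 12052035, and the 18 RNA samples 18769530 to 29503934. Both libraries with the fewest detected genes were sgControl, library 1 of day 5 replicate 2 (25398 genes) and library 1 of day 6 replicate 1 (26526). The second of these 2 libraries was close to the next lowest, which had 26605, so no clear gap set it apart. Without these 2 libraries the log2 guide difference of LONRF1 was 2.34, 2.29 and 2.30 on days 5, 6 and 7, and the day 7 against day 5 call in sgControl was lost (adjusted p = 0.0656). In bulk RNA, fewer cells with LONRF1 RNA and less of it per cell cannot be told apart.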

How the data were processed

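The authors deposited one table of raw counts, genes by 36 libraries, per the file headers and the labels. The submitters' processing notes name GRCh38, cutadapt 1.18 and STAR 2.7.9a. The counting tool, the annotation, the strand setting and the treatment of reads with several matches are not given in the sources used here, so overlapping genes, opposite strands and near-identical copies are uncertain. The labels mention no molecular identifiers, and counting limits cover counting error only.

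The counts of both libraries of an RNA sample were added. Differences were fitted with edgeR 4.0.16 in R 4.3.3: TMM normalization, filterByExpr with a minimum count of 10, 6 group means over 18 RNA samples, quasi-likelihood F tests and p-values adjusted by Benjamini and Hochberg over all tested genes, with calls at an adjusted p under 0.05. Replicates 1 to 3 of each guide were also added over days and libraries (6 sums). The SE was derived from the F statistic. The ratio used log2(CPM + 1) and exact permutation, and the pooled correlation 100000 permutations. The code was checked on simulated counts.

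The members, gene lists and tests were chosen with earlier results of these data known. Named were LONRF1, RELA, all genes of the LON domain list, up to 4 quality control ligases, 3 conjugating enzymes and 4 NF-kB targets with the smallest p over the sums, the nearest tested neighbours and the 5 genes most like LONRF1. Alternatives were DESeq2 1.42.0, its size factors, no filter, each library set, each sample left out, replicate blocks and other pseudocounts. The analysis without the 2 libraries with few detected genes was chosen after seeing the data. Some genes of the lists are not reported here by name. Symbols came from a table that matched 57693 of 74628 identifiers.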

Additional observations from a re-analysis of the deposited data

Results flagged for a closer look

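One library stood apart for RELA. Library 1 of sgControl day 6 replicate 1 held 50.8 CPM of RELA, while the other 5 libraries of its group held 19.2 to 22.3 CPM. The gap to the nearest library was 0.902 of the group's range, over Dixon's 95% limit for 6 libraries. The search covered LONRF1 and RELA in 6 groups, 12 in all, with 1 passing, and chance flags about 1 in 20. The same library had the lowest LONRF1 level of all 36, 11.2 CPM, although its gap did not pass, and the second library of the same RNA held 28.0 CPM of LONRF1 and 21.6 CPM of RELA. It had 7586205 counts, the fewest of all libraries. The exact permutation p of the ratio over days in sgControl was 0.829 when both libraries with few detected genes (this one and library 1 of day 5 replicate 2) were dropped, against 0.5 with both.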

How the results depend on the processing

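For LONRF1, 16 values were recomputed under 320 alternatives, of which 299 kept their direction and their side of the threshold or moved by less than the spread between replicates. For a contrast of 2 groups, most fits that left out 1 RNA sample dropped one from outside those groups, a weaker check. With the first libraries alone, the guide difference on day 6 moved to 2.81. The day 6 and day 7 falls against day 5 were -0.62 and -0.46 under sgRELA, and the day 7 fall was -0.38 under sgControl, none past the threshold. The day 6 fall under sgControl was -1.05 and passed, and day 7 against day 6 in sgControl passed at 0.68. With the second libraries alone, the guide difference on day 6 was 2.23, and no fall passed (-0.50 and -0.47 under sgRELA, -0.41 and -0.47 under sgControl). These fits hold fewer counts. When each RNA sample was left out in turn, the sgControl value of day 7 ranged from -0.53 to -0.34 against day 5 and from 0.14 to 0.40 against day 6. Without the 2 libraries with few detected genes the former was -0.41 and missed the threshold.

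The pooled correlation of LONRF1 with RELA in sgControl missed the threshold as Spearman's rho (0.78), without the 2 samples farthest from the median (0.65), with the first libraries (0.076) or the second (0.56), and without the 2 libraries with few detected genes (0.72). The cause was not tested. The exact p of the ratio over days under sgRELA ranged from 0.014 to 0.039 with 1 sample left out. A replicate block changed no LONRF1 call: the falls under sgRELA were -0.58 and -0.46, those under sgControl -0.67 and -0.42, and the ratio under sgRELA gave an exact p of 0.0278. Over genes with a mean of at least 10 CPM, same-numbered samples of one guide did not deviate together (median correlation -0.0045, 0 of 18 pairs over 0.1). For the ratio under sgRELA, F was 14.8 without the block and 28.1 with it. The second F makes no allowance for the replicate means taken out, so it is too high to be compared with the first. With deviations taken within groups of 3, the check cannot settle whether the numbers pair cultures. For the other genes named, 482 of 532 alternatives kept the call, 47 lost and 3 gained one, and 0 reversed.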

Other observations

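Some conjugating enzymes and quality control ligases, with no call between the guides, changed between days in both. From day 6 to day 7, 5 of 14 ubiquitin-conjugating enzymes rose under sgRELA and 6 of 14 under sgControl by edgeR, with none called lower, beside 12.2% and 14.6% of all genes called. UBE2N, the partner of the UBE2V variants in lysine-63 chains, rose by 0.58 ± 0.10 on the log2 scale (SE), with an adjusted p of 0.000118, under sgRELA and by 0.75 ± 0.10 (adjusted p = 1.65e-06) under sgControl. From day 5 to day 7, only 3 of the 14 conjugating enzymes were called higher under each guide, and 1 was called lower under sgControl. Over the same days, 5 of 20 quality control ligases fell and 1 rose under sgRELA, and 4 fell and 1 rose under sgControl. Of all genes, 12.4% and 13% were called between these days. UBE3C rose by 0.43 ± 0.10 (adjusted p = 0.00211) under sgRELA and by 0.51 ± 0.10 (adjusted p = 0.000335) under sgControl. UBE2N and UBE3C were chosen after their values were seen. Whether these courses differ between the guides was not tested for the lists.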
